A study of Homo sapiens with 8 samples.

Results

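The 8 genes described here, KLK2, KLK3, KLK4, ACP3, TMPRSS2, FOLH1, SLC45A3 and PSCA, are genes of the luminal cells of the prostate, 8 of 20136 protein-coding genes placed on the hg19 build. They were chosen by name and not by any measured value, though earlier results of these data were known. A peak was counted for a gene when its summit lay in the gene body or within 50 kb of any annotated transcription start site (TSS) of that gene. The peaks came from ChIP-Seq, in which crosslinked chromatin is precipitated with an antibody and sequenced, in the human prostate cancer cell line PC-3. HoxC5 was precipitated with an anti-Hoxc5 antibody from control PC-3 cells, which carried no overexpression, as replicates 1 and 2. The same antibody was used in 1 library of cells with Hoxc5 overexpression, and a PBX4 antibody in 1 library of cells with Pbx4 overexpression. No label says whether the endogenous replicates came from separate cultures, and all groups share the one cell line. With 1 library per overexpression and a deposited list of peaks in place of read counts, the values below are a description of these 4 lists and no difference between conditions was tested.

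HoxC5 is a homeodomain transcription factor that binds DNA together with cofactors of the Pbx and Meis families, and Pbx4 is one such cofactor. In luminal prostate cells most of these 8 genes respond to androgens. KLK3 encodes prostate-specific antigen, KLK2 and KLK4 encode related serine proteases and ACP3 encodes prostatic acid phosphatase, all of which are secreted. TMPRSS2 is a serine protease anchored in the cell membrane, FOLH1 is prostate-specific membrane antigen, a carboxypeptidase at the cell surface, SLC45A3 (prostein) is a membrane protein of a sugar transporter family, and PSCA is a small surface protein held by a lipid anchor. PC-3 is a line known for growing without an androgen response. The peak lists hold no expression values, so whether the 8 genes were silent in these cultures was not measured.

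In the overexpression lists HoxC5 and Pbx4 peaks lay near nearly all of the 8 genes, while endogenous HoxC5 peaks were few. In endogenous replicate 1, 2 of the 8 genes had a peak (SLC45A3 and PSCA, 1 each), which is 25.0% (95% exact Clopper-Pearson interval 3.19 to 65.1%, counting error only), beside 17.2% of all protein-coding genes. In endogenous replicate 2, 0 of the 8 genes had a peak, beside 1.47% of all protein-coding genes. With HoxC5 overexpressed, 7 of 8 genes had a peak, FOLH1 being the exception, beside 87.8% of all protein-coding genes. With Pbx4 overexpressed, all 8 had a peak, beside 93.1%. The share of the 8 genes with a peak was thus close to that of all genes in both overexpression lists.

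The lists differ greatly in length, with 2525 and 170 peaks for endogenous replicates 1 and 2, 67196 for overexpressed HoxC5 and 153620 for overexpressed Pbx4. The number of reads in each library is unknown here. The lists also ended at unlike q-values (the peak caller's adjusted p). The largest q-value was 0.00997 for overexpressed HoxC5, 0.049 for Pbx4, and 0.0398 and 0.0499 for endogenous replicates 1 and 2. The part of read number and of these limits in the lengths was not tested. Counted once each, 2 endogenous peaks (both from replicate 1), 30 overexpressed HoxC5 peaks and 60 Pbx4 peaks lay near the 8 genes. Joined, the regions of the 8 genes cover 834 kb. They held 3.60 overexpressed HoxC5 peaks per 100 kb, against 2.35 over the sequenced genome, and 7.19 Pbx4 peaks per 100 kb, against 5.37. Set against genes and not the genome, the 8 genes had a median of 3.02 overexpressed HoxC5 peaks per 100 kb of region, beside 3.15 for all protein-coding genes, and 7.54 Pbx4 peaks, beside 5.98.

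**Figure D1:**
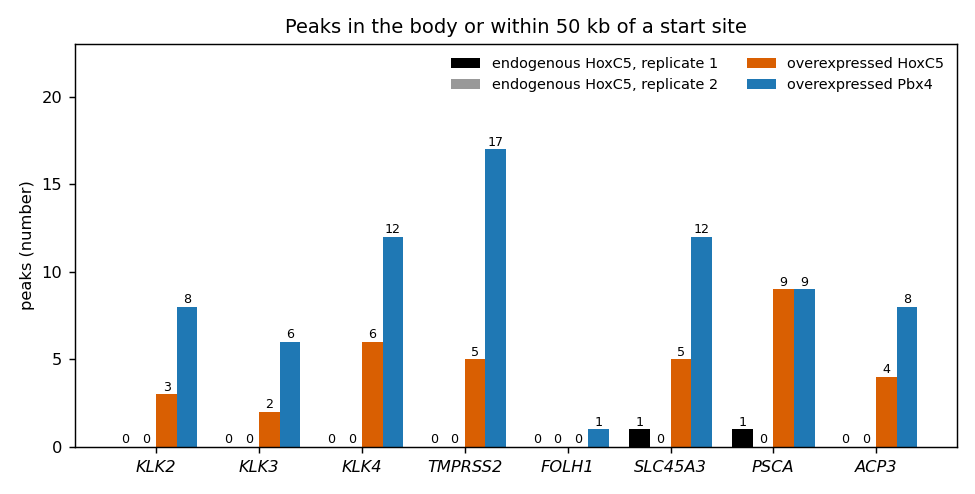
Number of peaks (vertical axis) whose summit lies in the body or within 50 kb of a TSS of each of the 8 genes, by list (colours). TMPRSS2 has the most Pbx4 peaks (17), PSCA the most overexpressed HoxC5 peaks (9), FOLH1 has 1 Pbx4 peak and no other, and the endogenous lists give 1 peak at SLC45A3 and 1 at PSCA; peaks of the 3 neighbouring KLK genes are counted for each of them.

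The 8 genes spread widely in both overexpression lists. For overexpressed HoxC5, PSCA stood highest with 9 peaks, at percentile 89.9 of all protein-coding genes by peaks per 100 kb. KLK4 followed with 6 peaks (percentile 75.7) and SLC45A3 with 5 (62.5). TMPRSS2 with 5 peaks, ACP3 with 4 and KLK2 with 3 lay near the middle, at percentiles 49.6, 45.4 and 40.5. KLK3 with 2 peaks was at percentile 31.6, and FOLH1 had none. For Pbx4 the order was different at the top, with KLK4 (12 peaks, percentile 84.9), TMPRSS2 (17 peaks, 80.6) and SLC45A3 (12 peaks, 79.6) ahead of PSCA (9 peaks, 67.9). KLK2 (8 peaks), ACP3 (8) and KLK3 (6) were between percentiles 48.7 and 57.6, and FOLH1, with 1 peak, was at percentile 7.70. With 1 library per list no spread between replicates is available to say which neighbours in these orders differ.

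Peaks close to start sites were counted separately from those in the wider regions. No endogenous peak had its summit within 1 kb of a TSS of any of the 8 genes, beside 3.38% of all protein-coding genes in replicate 1 and 0.209% in replicate 2. Overexpressed HoxC5 had such a peak at 2 of 8 genes, PSCA and ACP3 (25.0%, interval 3.19 to 65.1%), beside 55.0% of all protein-coding genes. Pbx4 had one at 4 of 8 genes, KLK2, TMPRSS2, PSCA and ACP3 (interval 15.7 to 84.3%), beside 42.0%. Both shares over all genes lie inside these intervals, which treat the 8 genes as separate although the regions of KLK2, KLK3 and KLK4 overlap. The median distance from a TSS to the nearest overexpressed HoxC5 summit was 6.53 kb for the 8 genes and 0.386 kb for all protein-coding genes. For Pbx4 it was 1.19 kb and 1.70 kb. The HoxC5 distances of the 8 genes ran from 0.014 to 824 kb. For KLK2, KLK3 and KLK4 (20.3, 40.3 and 9.11 kb) the nearest HoxC5 summit was the same peak, so these values are not separate.

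**Figure D2:**
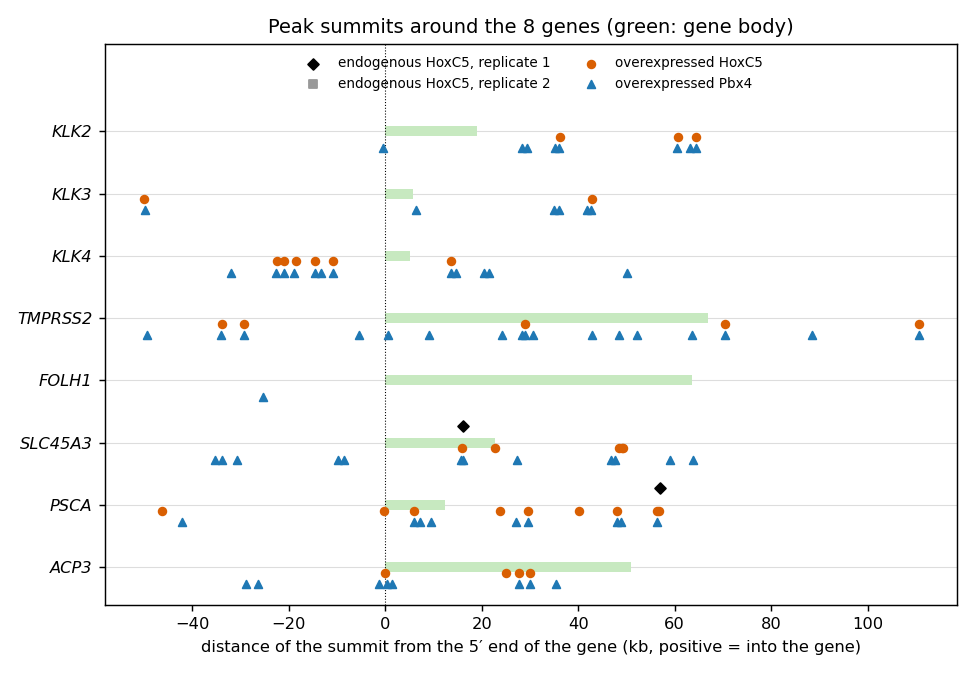
Position of every peak summit counted for the 8 genes, in kb from the 5′ end of the gene (0, dotted line; positive values run into and past the gene), with 1 row per gene, symbols by list and the gene body in green. The summits are scattered through the regions. The bodies of KLK2, KLK3 and KLK4 are empty, and FOLH1 has a single Pbx4 summit at -25.2 kb. The only endogenous summits are at 16.0 kb in SLC45A3 and at 56.9 kb past the PSCA 5′ end.

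The secreted proteases KLK3, KLK2 and KLK4 lie in a row on chromosome 19 (KLK3 at 51358171 to 51364020 and KLK2 at 51364824 to 51383823 on the plus strand, KLK4 at 51409607 to 51414651 on the minus strand). Their regions overlap, so 1 peak can count for several of them, and the same 7 overexpressed HoxC5 peaks and 13 Pbx4 peaks make up all of their counts. No peak of any list lay in the body of KLK3 or within 1 kb of a KLK3 TSS. From 49.9 kb upstream of the KLK3 5′ end to 6.31 kb downstream of it, a stretch of 56.2 kb, no list held a summit. The only peaks upstream of KLK3 were an overexpressed HoxC5 peak (fold enrichment over the local background 7.43) and an overlapping Pbx4 peak (6.46), 49.97 and 49.86 kb away, just inside the 50 kb limit and nearest to the TSS of SMIM47. By number of peaks, KLK3, whose product is the standard serum marker of the prostate, had the fewest of the 3 proteases. It had 2 overexpressed HoxC5 and 6 Pbx4 peaks, against 3 and 8 for KLK2 and 6 and 12 for KLK4. An empty body was not particular to KLK3, since KLK2 and KLK4 had none inside theirs either. KLK4 also had no peak within 1 kb of a TSS.

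KLK2 had 1 Pbx4 peak at its start, at chr19:51364277-51364618, with its summit 346 bp upstream of a TSS. Its fold enrichment was 11.4 and it ranked in the first 19.7% of the Pbx4 list by q-value, the peak caller's adjusted p, and no HoxC5 list held a peak there. The body of KLK2 itself held no peak. Past its 3′ end, Pbx4 peaks at 28.3 and 29.4 kb from the KLK2 5′ end (fold 10.8 and 6.90) lay in KLKP1, a noncoding KLK pseudogene. The 3 overexpressed HoxC5 peaks of KLK2 all overlapped Pbx4 peaks but were low in their own list (fold 4.80, 4.91 and 4.88, ranks by q-value at 87.5, 83.6 and 84.5% of the list).

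The strongest Pbx4 peaks counted for KLK2, KLK3 or KLK4 lay on both sides of KLK4, and none lay inside its body. Those on either side were counted for KLK2 as well. The strongest, chr19:51428955-51429442, had its summit 14.6 kb upstream of the KLK4 TSS, with a fold of 19.4 and rank 3464 of 153620 by q-value (2.26%). Overexpressed HoxC5 had a peak within it, at chr19:51429199-51429342, with a fold of 4.88 and its summit 22 bp away. The next, chr19:51399263-51400332, lay 10.1 kb from a KLK4 TSS on the downstream side, with a fold of 17.6 and a rank in the first 2.34%, and did not overlap a HoxC5 peak. Between KLK4 and KLK5 lay 4 more sites near KLK4 with Pbx4 fold over 9, of which 3 also had overexpressed HoxC5 (fold 4.91, 7.66 and 4.47). The remaining HoxC5 peaks of KLK4 were the one of fold 4.80 on the downstream side, shared with Pbx4, and 1 found with HoxC5 alone 18.5 kb upstream (fold 4.44, rank at 66.3%). The 2 Pbx4 peaks of highest fold thus lay on either side of KLK4, as the plot of fold enrichment along the cluster shows. Folds of different lists depend on each library and are not compared in size.

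**Figure D3:**
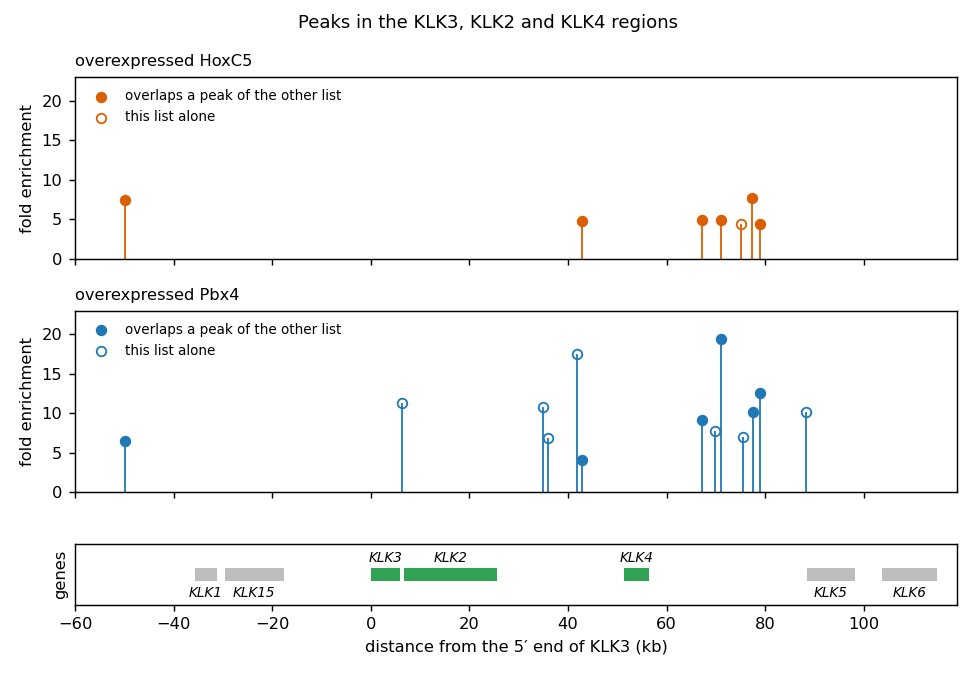
Fold enrichment (vertical axis) of the peaks counted for KLK3, KLK2 and KLK4, by distance of the summit from the 5′ end of KLK3 in kb, for overexpressed HoxC5 (top, 7 peaks) and overexpressed Pbx4 (middle, 13 peaks); filled circles overlap a peak of the other list, and the bottom row shows the 3 genes in green and other KLK genes in grey. The KLK3 body and 49.9 kb before it are empty, the largest Pbx4 folds are 19.4 and 17.6 on either side of KLK4, and all but 1 of the HoxC5 peaks overlap Pbx4.

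The reference sequences under 3 of these sites are shown. They hold the strongest Pbx4 peaks counted for KLK2, KLK3 or KLK4 and the only peak within 1 kb of a TSS of these genes. Each is the plus strand of GRCh37 from 50 bp before the first to 50 bp after the last summit of the overlapping peaks, in lower case, and capitals mark a word that was searched. At the KLK4 upstream site, chr19:51429177-51429299, the capitals mark the AP-1 word. Its first letter lies 65 bp from the Pbx4 summit, outside the 50 bp searched around each summit, but within 50 bp of the HoxC5 summit. At the KLK4 downstream site, chr19:51399947-51400047, they mark the Meis word. The KLK2 start site, chr19:51364428-51364528, holds none of the words and ends before the annotated KLK2 exon. All 3 lie outside protein-coding genes.
KLK4 upstream site: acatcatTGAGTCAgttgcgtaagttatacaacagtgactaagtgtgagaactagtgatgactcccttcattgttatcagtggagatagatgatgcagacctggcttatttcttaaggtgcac
KLK4 downstream site: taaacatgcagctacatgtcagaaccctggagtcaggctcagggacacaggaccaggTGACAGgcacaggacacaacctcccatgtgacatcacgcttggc
KLK2 start site: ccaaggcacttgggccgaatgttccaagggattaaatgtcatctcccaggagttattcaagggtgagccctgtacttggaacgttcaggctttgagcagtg

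ACP3 (chromosome 3, 132036213 to 132087146, plus strand) was the only one of the 8 genes at whose 5′ end both overexpressed factors had overlapping peaks. The HoxC5 peak at chr3:132036167-132036328 had its summit 14 bp from a TSS, in the first exon and its 5′ UTR, but was weak in its list, with a fold of 4.91 and a rank at 83.6%. A Hox word lay within 50 bp of that summit. The Pbx4 peak over it, chr3:132036077-132036826, had its summit 315 bp downstream of a TSS, in an intron, with a fold of 9.73 and a rank at 25.2%. Pbx4 alone had 2 further peaks close by, at -1.32 and 1.33 kb from the 5′ end, with folds of 7.12 and 10.9.

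Inside ACP3, 27.8 kb from its 5′ end, lay the overexpressed HoxC5 peak of highest fold near any of the 8 genes, at chr3:132063854-132064102, with a fold of 15.1 and a rank at 8.15%. A Pbx4 peak with a fold of 7.54 overlapped it, its summit 51 bp away, and both summits are intronic. Further into the gene, HoxC5 (fold 8.31) and Pbx4 (fold 10.6) again overlapped, so 3 of the 4 HoxC5 peaks of ACP3 were shared with Pbx4. The fourth, 25.0 kb from the 5′ end with a fold of 5.26, was found with HoxC5 alone. The other Pbx4 peaks of ACP3 were 1 that lay 35.3 kb into the gene (fold 4.37), 129 bp from an internal TSS, and 2 upstream (fold 4.90 and 6.84), nearest to the TSS of CPNE4. The intronic site of the highest HoxC5 fold, chr3:132063899-132064050 on the plus strand of GRCh37, is shown for its AP-1 word, in capitals, whose first letter lies 40 bp from the HoxC5 summit.
ACP3 intronic site: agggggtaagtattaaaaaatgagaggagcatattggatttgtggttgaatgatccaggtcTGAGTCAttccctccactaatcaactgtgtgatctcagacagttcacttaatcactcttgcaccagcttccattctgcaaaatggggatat

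TMPRSS2 (chromosome 21, 42836227 to 42903043, minus strand) had 17 Pbx4 peaks, the most of the 8 genes, over the longest region (162 kb). The gene body held 10 of them, and the folds of all 17 ran from 2.5 to 12.6. The strongest by q-value, chr21:42873841-42874252, lay in an intron 29.0 kb from the 5′ end, with a fold of 12.6 and a rank at 4.65%. A second Pbx4 peak stood 594 bp from it with a fold of 11.7. At the 5′ end itself, a Pbx4 peak had its summit 571 bp into the gene, with a fold of 8.77, and another, weak in its list (fold 4.10, rank at 79.6%), lay 221 bp from an internal TSS. Neither overlapped a HoxC5 peak.

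All 5 overexpressed HoxC5 peaks of TMPRSS2 overlapped Pbx4 peaks, the strongest Pbx4 site among them. Their folds were 2.74 to 6.80, beside a median of 6.17 for the HoxC5 list, and their ranks by q-value ran from 45.4 to 97.0% of it. The HoxC5 peak over the strongest Pbx4 site had a fold of 3.89, its summit 1 bp from that of Pbx4, and an AP-1 word. Of the other 4, 2 lay 29.3 and 33.9 kb upstream of the gene, 1 was 8.05 kb from the nearest TMPRSS2 TSS inside the neighbouring gene MX1, and 1 was at the MX1 start, 39 bp from an MX1 TSS. MX1 encodes an interferon-induced antiviral GTPase.

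No endogenous HoxC5 peak was counted for TMPRSS2, but 1 lay just past the limit. At 52.4 kb upstream of the gene, replicate 1 had a peak at chr21:42955252-42955526 with a fold of 6.60 and rank 358 of 2525. Replicate 2 had one at chr21:42955285-42955443 with a fold of 5.38 and rank 118 of 170. Their summits were 4 bp apart and both overexpression lists had an overlapping peak. The nearest protein-coding TSS to it was that of TMPRSS2, and no other of the 8 genes had a replicate 2 peak closer than 96.9 kb.

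FOLH1 (chromosome 11, 49166644 to 49230190, minus strand) was nearly empty in every list. Its region of 152 kb held 1 Pbx4 peak, chr11:49255291-49255472, 25.2 kb upstream, with a fold of 5.46 and a rank at 77.2%. The nearest overexpressed HoxC5 summit was 824 kb from a FOLH1 TSS, and within 500 kb of the gene there were 2 Pbx4 peaks, 0 overexpressed HoxC5 peaks and 1 endogenous peak, in replicate 1. Of short windows cut from the reference across the FOLH1 region, 7.81% mapped back with a mapping quality under 10, and 10.5% in the gene body, against 4.69% over the genome and 1.04 to 4.77% in the regions of the other 7 genes. A related pseudogene, FOLH1B, lies elsewhere on chromosome 11. The authors removed reads of low mapping quality, and the part of that step in the empty region was not tested.

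SLC45A3 (chromosome 1, 205626979 to 205649637, minus strand) held the only endogenous HoxC5 peak inside one of the 8 genes. In replicate 1 it lay at chr1:205633504-205633693, with its summit 16.0 kb into the gene and 1.80 kb from the nearest annotated TSS, that of a short transcript. Its fold was 7.70 and its rank 168 of 2525 by q-value, in the first 6.65% of the list. Replicate 2, with 170 peaks, had no peak there. Both overexpressed factors had a peak at the same site, HoxC5 at chr1:205633517-205633757 (fold 6.60, rank at 31.2%) and Pbx4 at chr1:205633430-205633735 (fold 11.1, rank at 16.0%). It was the only one of 71 sites near the 8 genes, after merging overlapping peaks, that was held by the endogenous and by both overexpression lists.

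The endogenous and Pbx4 summits at this site fell on the same base, in an intron, and the overexpressed HoxC5 summit fell 63 bp away in the coding part of the neighbouring SLC45A3 exon. All 3 summits had the AP-1 word within 50 bp. The sequence, chr1:205633542-205633705 on the plus strand of GRCh37, opposite to the strand of the gene, is shown because it is the site common to the 3 conditions, with the AP-1 word in capitals.
SLC45A3 site: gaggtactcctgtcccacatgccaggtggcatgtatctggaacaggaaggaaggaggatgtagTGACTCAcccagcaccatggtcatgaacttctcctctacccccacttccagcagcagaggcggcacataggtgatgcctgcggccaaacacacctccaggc

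The other peaks near SLC45A3 were in 1 list each. Overexpressed HoxC5 had 1 more peak close to the 3′ end of the gene (fold 6.22) and 3 peaks with folds of 3.83 to 5.51 within 741 bp of the start of ELK4, a neighbouring gene for an ETS-family transcription factor. Pbx4 had 11 more peaks, of which 4 were nearest to ELK4 and 3 to NUCKS1, with folds of 2.73 to 10.2. At the 5′ end of SLC45A3 itself no list had a peak within 1 kb, and the nearest Pbx4 peaks upstream were 8.55 and 9.71 kb away.

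PSCA (chromosome 8, 143751726 to 143764143, plus strand) had as many overexpressed HoxC5 peaks as Pbx4 peaks, 9 of each, in a region dense with other genes. Only 1 overexpressed HoxC5 peak had a PSCA TSS as its nearest, at chr8:143757403-143757824, with a fold of 10.1 and a rank at 3.93%, in an intron and with an AP-1 word. Pbx4 had a peak on it (fold 7.44, rank at 7.93%), and Pbx4 alone had 2 more peaks in the body, 1 of them 580 bp upstream of an internal TSS. The HoxC5 peak 309 bp upstream of the PSCA 5′ end (fold 9.60, rank at 6.63%) had its summit 5 bp from a TSS of JRK, a gene that overlaps PSCA, so the peak cannot be assigned to either start.

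In the PSCA region, the strongest peak of each overexpression list was at another gene, LY6K. The HoxC5 peak with a fold of 13.2 and a rank at 1.76%, at chr8:143781145-143781532, overlapped a Pbx4 peak of fold 11.8 and rank 2.26%, and lay 182 bp from a TSS of LY6K, a surface protein gene of the same family as PSCA. The endogenous peak counted for PSCA, in replicate 1 at chr8:143808475-143808774 (fold 6.05, rank 321 of 2525), lay 18 bp from a TSS of THEM6 and 46.7 kb from the nearest PSCA TSS. Overexpressed HoxC5 had a peak over it (fold 9.0) and Pbx4 did not. Of the other 5 HoxC5 peaks, 2 were nearest to THEM6, 0.648 and 8.88 kb from it, both shared with Pbx4 and both with the AP-1 word (fold 6.51 and 8.32). The last 3 were found with HoxC5 alone, 2 of them nearest to LY6K (fold 4.09 and 4.50) and 1 nearest to ARC, 46.1 kb upstream of PSCA (fold 6.90). Pbx4 had 5 further peaks, with folds of 3.41 to 5.70 for those not shared and 6.80 and 2.82 for those shared at THEM6.

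The counting rule takes in peaks up to 50 kb from a TSS, so a peak could be counted outside the gene bodies. The locations below were not counted for other genes or for the whole lists. Of the 30 overexpressed HoxC5 peaks, 7 lay in the body of one of the 8 genes, 5 in another protein-coding gene and 18 between genes, and 15 had one of the 8 genes as the nearest TSS. Of the 60 Pbx4 peaks, 20 lay in the body of one of the 8 genes, 7 in another gene and 33 between, and 39 had one of the 8 as the nearest TSS. The peaks were of ordinary size for their lists, with a median fold of 5.88 beside 6.17 for all overexpressed HoxC5 peaks and 6.74 beside 6.36 for all Pbx4 peaks. In the first 10% of the list by q-value were 4 of the 30 HoxC5 peaks and 8 of the 60 Pbx4 peaks.

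Sharing between the overexpression lists near the 8 genes was close to that of the whole lists. Of the 30 HoxC5 peaks, 19 overlapped a Pbx4 peak by at least 1 bp (63.3%, interval 43.9 to 80.1%), beside 67.7% of all HoxC5 peaks. Of the 60 Pbx4 peaks, 19 overlapped a HoxC5 peak (31.7%, interval 20.3 to 45.0%), beside 28.5% of all Pbx4 peaks. Both whole-list values lie inside the intervals. The HoxC5 list ended at a lower q-value than the Pbx4 list. With both lists held to a q-value of at most 0.001, the shares near the 8 genes were 53.3% of HoxC5 and 30.8% of Pbx4 peaks. By gene, all HoxC5 peaks of KLK2, KLK3 and TMPRSS2 were shared with Pbx4, 5 of 6 at KLK4, 3 of 4 at ACP3, 4 of 9 at PSCA and 1 of 5 at SLC45A3. Merged, the 71 sites comprised 41 with Pbx4 alone, 18 with both overexpressed factors, 10 with overexpressed HoxC5 alone, 1 with HoxC5 endogenous and overexpressed, and the SLC45A3 site.

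**Figure D4:**
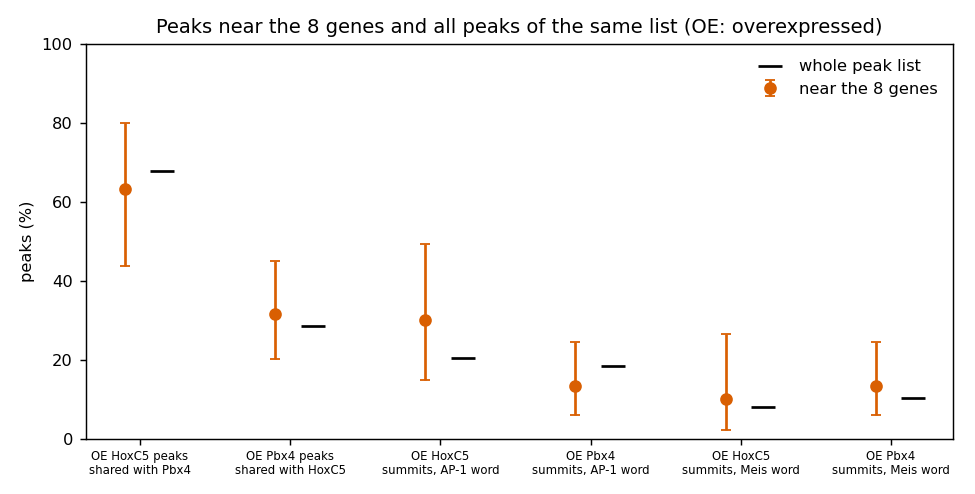
Percent of peaks (vertical axis) that overlap the other overexpression (OE) list, or that hold the AP-1 or Meis word within 50 bp of the summit, for peaks near the 8 genes (circles with 95% exact intervals, counting error only; 30 HoxC5 and 60 Pbx4 peaks) and for all peaks of the same list (bars). Every whole-list value lies within the interval of the peaks near the 8 genes.

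Words were sought on both strands within 50 bp of each summit. The AP-1 word TGAGTCA, bound by Fos and Jun factors, lay at 9 of the 30 overexpressed HoxC5 summits (interval 14.7 to 49.4%), beside 20.5% of all summits of that list, and at 8 of the 60 Pbx4 summits (13.3%, interval 5.94 to 24.6%), beside 18.5%. The Meis word TGACAG lay at 3 HoxC5 summits (10.0%) and 8 Pbx4 summits (13.3%), beside 7.88 and 10.4%. The Hox word TAATTA lay at 2 HoxC5 summits (6.67%) and 1 Pbx4 summit (1.67%), beside 2.01 and 1.96%. No summit held one of the joint Hox and Pbx words TGATTGAT, TGATTAAT or TGATTTAT, which were at under 1% of the summits of either whole list. None of these words contains another.

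Words tied to the androgen response were sought in the same windows, and the whole-list shares of the half-site lie inside the intervals near the 8 genes. The half-site of the androgen response element, AGAACA, lay at 1 of the 30 HoxC5 summits (3.33%, interval 0.0844 to 17.2%, at ACP3) and 3 of the 60 Pbx4 summits (5.0%, interval 1.04 to 13.9%, at KLK4, TMPRSS2 and ACP3), beside 6.12 and 8.13% of the whole lists. No summit near the 8 genes held the full element, 2 half-sites facing each other 3 bases apart, which was found at 2 summits in each whole overexpression list. The forkhead word TGTTTAC, bound by FOXA1 and its relatives, was at none of these summits, beside 3.0 and 3.84% of the whole lists, which lie inside the intervals of 0 to 11.6 and 0 to 5.96%. Within 100 bp, 4 of the 60 Pbx4 summits held it (6.67%), beside 6.98% of the whole list. A match is a description of the letters, and a missing match says only that these letters are not in the window.

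Other genes of the same tissue were counted by the same rule, from lists named with earlier results of these data known. Of 20 further androgen-response genes, 4 had a peak in endogenous replicate 1 (C1orf116, TRPM8, PTGER4 and NDRG1) and 1 in replicate 2 (NDRG1). A peak was found at 19 with overexpressed HoxC5 and at 20 with Pbx4. The shares of all protein-coding genes with such a peak were 17.2, 1.47, 87.8 and 93.1%, in that order. Within 1 kb of a TSS, 16 of the 20 had an overexpressed HoxC5 peak and 13 a Pbx4 peak, against 2 and 4 of the 8 genes above and 55.0 and 42.0% of all protein-coding genes. The other lists did not share one level: such HoxC5 and Pbx4 peaks were at 5 and 3 of 6 luminal transcription factor and keratin genes, 1 and 2 of 4 basal-cell genes, and 0 and 3 of 12 other KLK genes. Of the 6 luminal genes, 3 had an endogenous replicate 1 peak (FOXA1 with 3, SPDEF with 2 and HOXB13 with 1) and 1 a replicate 2 peak (FOXA1). Of the 4 basal-cell genes, 1 had an endogenous peak (KRT15). None of the other 12 KLK genes had an endogenous peak, and all 12 had overexpressed HoxC5 and Pbx4 peaks, with medians of 3 and 10.5. These 12 genes lie in one cluster with overlapping regions, so the same peak can count for several of them. The regions of KRT8 and KRT18, among the luminal genes, and of KRT14 and KRT15, among the basal-cell genes, also overlap. None of these differences between gene lists was tested.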

How the data were processed

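Peaks of 4 ChIP libraries from PC-3 cells were analysed; the 4 input libraries were not analysed here. Reads had been aligned by the authors to hg19 (BWA-MEM), filtered for mapping quality and duplicates (SAMtools) and turned into 1 MACS2 peak list per library. Which MACS2 version, control and region filter were used is not given in the sources used here. Each deposited row holds an interval, a summit, the fold enrichment (a ratio to local background), the −log10 of p and of q, and a score made from q. Fold and q are the values deposited by the authors and were ranked inside each list; p and the score entered no result. The study's methods state sequencing depth only as an average range across libraries, and read totals are absent from the lists, so no single library's depth or precision is known.

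Summits were placed on GENCODE 44 genes lifted to GRCh37, the same build, with python 3.11.15, numpy 2.4.6, pandas 2.3.3, scipy 1.17.1, pysam 0.24.0 and matplotlib 3.10.9. Peaks were shared when they overlapped by 1 bp. Mappability windows were mapped with minimap2 2.31-r1302. Intervals are Clopper-Pearson at 95% and cover counting error only. Those over genes treat the 8 genes as separate, although KLK2, KLK3 and KLK4 lie in one locus. Counting and overlap were tested on simulated data. The rule for naming covered every HoxC5 peak near the 8 genes, Pbx4 peaks within 10 kb of a TSS, shared with HoxC5 or strongest per gene, and a neighbouring gene whose TSS was nearest; Pbx4 peaks not singled out are in the counts, ranges and plots. The 8 genes and the comparison lists were chosen with earlier results of these data known, and 1 gene of a comparison list is not reported here. A planned count of promoter CpGs was void, since the RefSeq promoter table matched 5 of 8 genes (62.5%, with 80% needed). Alternatives were other windows, start sites, filters, overlaps and word windows, and each endogenous replicate left out.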

Additional observations from a re-analysis of the deposited data

How the results depend on the processing

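Counts were held to 1.5 times the reported count and percentages to the exact 95% interval of the reported value; of 66 alternative values, 48 stayed within these limits and 18 moved. Endogenous HoxC5 counts were small, so each moved easily. The number of genes with an endogenous peak, 2, was 1 with a window of 10 kb and 1 with the 5′ end of the gene as the only TSS. The number of endogenous peaks, 2, was 1 under each of these and 6 with a window of 100 kb. With either endogenous replicate left out, both counts ranged from 0 (without replicate 1) to 2 (without replicate 2). Endogenous peaks at start sites rose from 0 to 1 with a limit of 2.5 kb, the SLC45A3 site. The 30 overexpressed HoxC5 peaks became 11 with a window of 10 kb, 49 with 100 kb and 18 with a fold of at least 5. The 60 Pbx4 peaks became 28 and 100 with these windows. Pbx4 peaks within 1 kb of a TSS, 6, became 12 with 2.5 kb and 3 with the gene's 5′ end only. Among genes whose region was no longer than the longest of the 8, 86.6% had an overexpressed HoxC5 peak (87.8% of all genes) and 92.1% a Pbx4 peak (93.1%). The AP-1 word was at 30% of the Pbx4 summits within 100 bp (29.1% over the whole list), against 13.3% within 50 bp (18.5%). The reasons for these shifts were not tested. No paired analysis was possible because the input libraries sharing replicate numbers with the endogenous libraries had no peak lists here and no result came from a test.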
